A study of Mus musculus with 6 samples.

Results

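Matrix proteases and the scaffolds that place them at the cell surface were followed in liver tumour cell lines. The 10 genes are Sh3pxd2a and Sh3pxd2b, the matrix metalloproteinases Mmp2, Mmp9, Mmp13, Mmp14 and Mmp15, and the tissue inhibitors of metalloproteinases Timp1, Timp2 and Timp3. They were taken by symbol from a count table of 53465 mouse genes. Sh3pxd2b was picked from the measured values, as a gene with one of the most consistent decreases, so its comparison between the groups is given as a description without a test, and the other 9 were added by name. RNA was sequenced from 3 Myc_Utx and 3 Myc_p53 lines, derived from liver tumours of C57BL/6 mice. The paper calls the lines of each group independent, and the labels do not give the mouse of each line. In the study's methods, tumours were induced by hydrodynamic tail vein injection of female mice with a transposon carrying c-myc together with plasmids for Cas9 and a single guide RNA that was directed against Kdm6a (also called Utx) in the Myc_Utx group. The Myc_p53 lines served as the control and carry the knockout that their label gives. Both groups therefore carry Myc, each has its own targeted tumour suppressor, and no line with Myc alone was among the samples, so the effects of the targeted genes cannot be told apart. The lines were grown on collagen-coated plates after collagenase and dispase digestion of the tumours, and the paper's methods describe passaging until no other cell types were visible.

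Invadopodia are actin-rich protrusions through which tumour cells degrade matrix, and podosomes are their counterparts in macrophages and other motile normal cells. Sh3pxd2a and Sh3pxd2b encode Tks5 and Tks4, adaptors with a phox homology domain and several SH3 domains. These are substrates of the kinase Src and are needed for such structures to form and to degrade matrix. Mmp14 and Mmp15 encode membrane-anchored metalloproteinases, Mmp2 and Mmp9 secreted gelatinases, and Mmp13 a secreted collagenase. TIMP proteins block the active site of metalloproteinases, and Timp2 also takes part in the activation of pro-Mmp2 by Mmp14 at the cell surface.

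Promoter sequences from RefSeq (GRCm38.p6) could be matched by symbol to 7 of the 10 genes. Sh3pxd2a, Mmp2 and Mmp9 had no entry. The sequences upstream of the start site are shown for Sh3pxd2b, the scaffold gene around which the set was built, for Timp1, the gene with the clearest difference among the others, and for Mmp13, whose level differed widely between lines of the same group. All are on the plus strand, written 5′ to 3′, and capitals mark matches to any of the motifs named after them.
Sh3pxd2b, chr11:32347590-32347819: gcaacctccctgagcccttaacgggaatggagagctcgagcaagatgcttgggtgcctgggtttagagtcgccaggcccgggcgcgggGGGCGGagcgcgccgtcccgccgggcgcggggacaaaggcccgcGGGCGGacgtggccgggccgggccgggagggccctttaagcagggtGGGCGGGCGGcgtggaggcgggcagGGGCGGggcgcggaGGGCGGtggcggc
Timp1, chrX:20869916-20870165: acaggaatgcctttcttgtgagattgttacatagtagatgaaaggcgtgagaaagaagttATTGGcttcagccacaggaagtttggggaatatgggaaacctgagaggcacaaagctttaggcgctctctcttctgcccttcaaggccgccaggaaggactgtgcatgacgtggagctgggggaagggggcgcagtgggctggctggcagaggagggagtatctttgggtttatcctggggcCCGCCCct
Mmp13, chr9:7272264-7272513: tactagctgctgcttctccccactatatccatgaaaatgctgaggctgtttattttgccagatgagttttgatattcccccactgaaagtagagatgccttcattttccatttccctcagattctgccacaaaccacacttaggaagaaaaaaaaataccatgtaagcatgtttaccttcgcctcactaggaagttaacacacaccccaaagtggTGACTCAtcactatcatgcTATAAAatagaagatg
The motifs searched on both strands were the AP-1 site TGANTCA, the E-box CACGTG, the CCAAT box CCAAT, the TATA box TATAAA and the GC box GGGCGG. Within 250 bases upstream of the start site, the Sh3pxd2b promoter held 6 GC boxes, of which a pair overlap, and 34 CpG dinucleotides, against a median of 6 CpG over 32851 promoter windows of that length. For Sh3pxd2b only the 230 bases from -250 to -21 are shown, since the last 20 lie within the gene as given in the count table. Its CpG count covers the full window. The Mmp13 promoter held 1 CpG, an AP-1 match that begins at position -35 and a TATA box match that begins at position -16. The Timp1 promoter held 6 CpG, with a CCAAT box match at -190 and a GC box match at -8, both on the opposite strand. Of all these windows, 32.7% held a GC box, 33.8% a CCAAT box, 12.4% a TATA box, 6.75% an AP-1 match and 6.02% an E-box. Such a match is a description of letters, and binding was not measured in this experiment.

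Libraries held 4656103 to 5473042 counted reads in Myc_Utx lines and 5370608 to 6937497 in Myc_p53 lines. Levels are TMM-normalized CPM, which are read counts scaled to a common library size and composition. The test was the quasi-likelihood F test of edgeR over the 11510 genes kept by its count filter, with Benjamini-Hochberg adjustment, and positive log2 fold changes stand for higher levels in Myc_Utx lines. Kdm6a mRNA ranged from 42.5 to 69.5 CPM in Myc_p53 and from 39.7 to 49.0 in Myc_Utx lines, and the groups overlapped. Indels made by Cas9 need not lower the mRNA of the targeted gene.

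Sh3pxd2b mRNA was at 75.4, 74.1 and 56.6 CPM in the Myc_Utx lines 2A, 2B and 2D, and at 234.8, 238.5 and 253.8 CPM in the Myc_p53 lines 1, 2 and 3. Every Myc_Utx line lay below every Myc_p53 line, with a wide gap and little spread within either group. The group means were 68.7 ± 10.5 CPM (SD, n = 3) and 242.4 ± 10.1 CPM (SD, n = 3), a 3.53-fold lower level in Myc_Utx. This is a log2 fold change of -1.82 with a standard error of 0.14. Ranked by the ratio of log2 fold change to standard error, Sh3pxd2b was 6 from the lowest of 11510 genes, whereas by log2 fold change alone it was 627. The neighbours in the first order were Dsc2, with a ratio of -12.8, and Mical1, with -11.8, and Sh3pxd2b itself had -12.8. When single lines were omitted the value stayed between -1.87 and -1.68.

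The gene lies on chromosome 11 of GRCm38 from 32347820 to 32428173, on the plus strand, and no other annotated gene of GENCODE M21 overlaps its span. Its transcript length in the table is 9709 bases. Log2 fold changes in this experiment declined with transcript length (Spearman's rank correlation coefficient -0.249 across the genes tested, which are not independent replicates), and with per-line offsets for length the value for Sh3pxd2b was -1.61.

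Sh3pxd2a, the paralogue that encodes Tks5, was at 127.2, 162.0 and 155.4 CPM in Myc_Utx 2A, 2B and 2D, and at 179.5, 312.5 and 214.6 CPM in Myc_p53 1, 2 and 3. The groups did not overlap here either, but the highest Myc_Utx line and the lowest Myc_p53 line were close. Its means were 148.2 ± 18.5 and 235.5 ± 68.9 CPM (SD, n = 3 each). The log2 fold change of -0.67 (standard error 0.22) did not pass the test (edgeR adjusted p = 0.0902). With length offsets it was -0.44 (adjusted p = 0.228), with DESeq2 -0.69 (adjusted p = 0.0292), and with a line left out between -0.84 and -0.41. Per kilobase of transcript, Sh3pxd2b stood at 0.64, 0.49 and 0.39 of the Sh3pxd2a level in Myc_Utx 2A, 2B and 2D and at 1.41, 0.82 and 1.27 in Myc_p53 1, 2 and 3. Sh3pxd2b was thus the less abundant scaffold mRNA in every Myc_Utx line and in Myc_p53 2, and the more abundant one in Myc_p53 1 and 3.

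**Figure D1:**
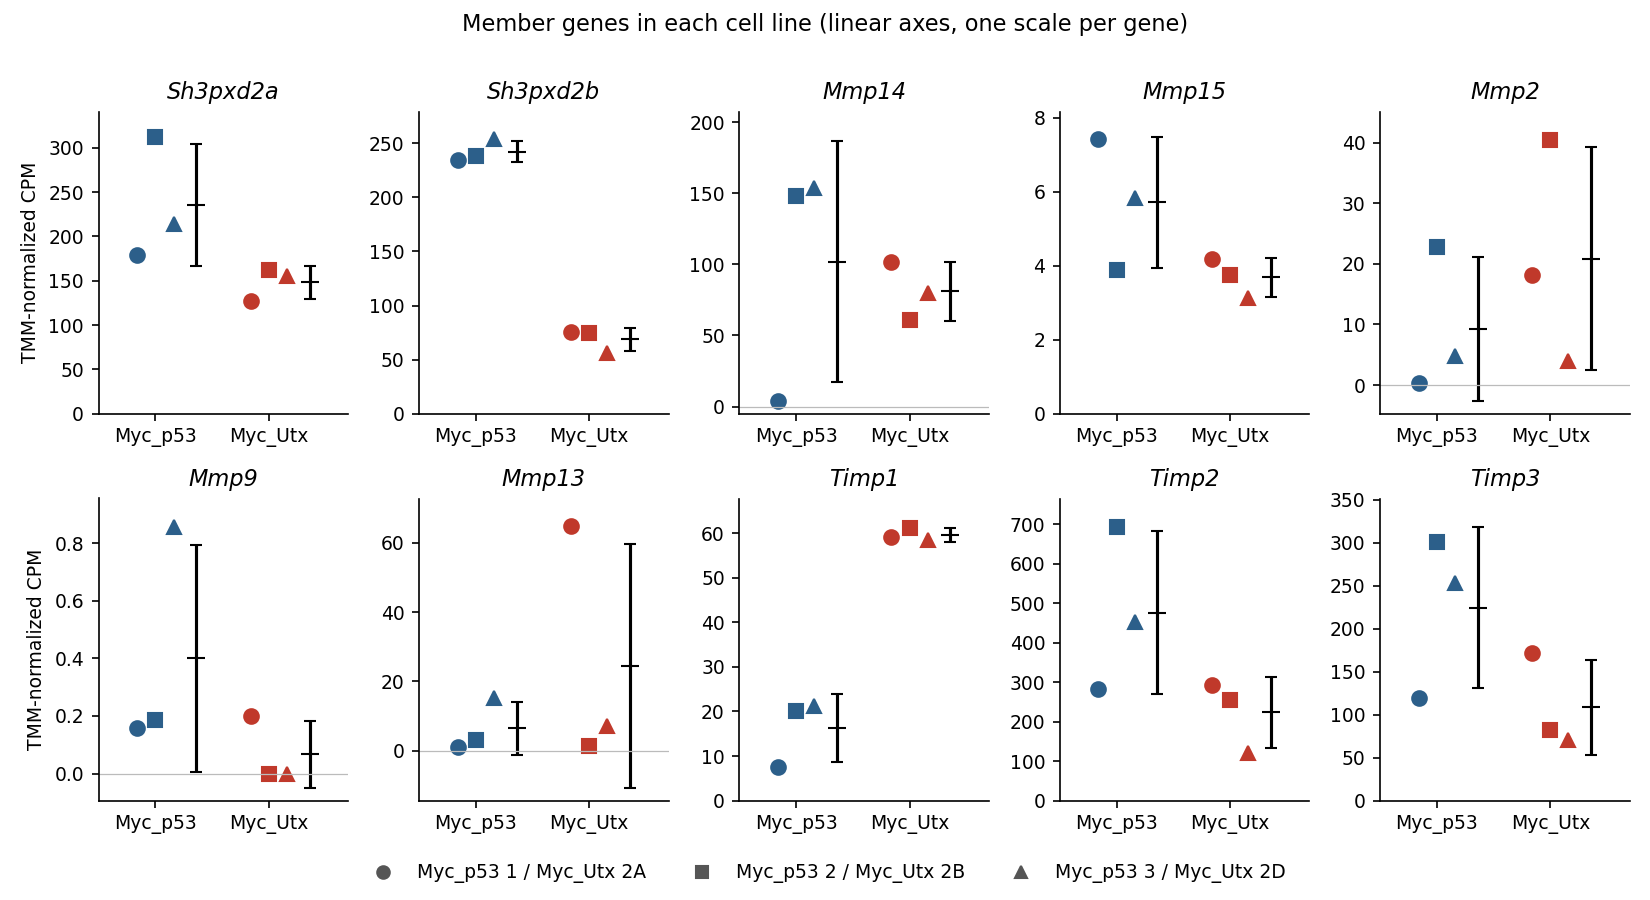
TMM-normalized CPM of the 10 genes in each cell line, on linear axes with a separate scale for each gene. Blue symbols are Myc_p53 and red symbols Myc_Utx lines, symbol shape only names a line and pairs none, and black bars give the mean and SD of 3 lines. Sh3pxd2a, Sh3pxd2b and Timp1 show groups that do not overlap, as 42% of all genes tested did. Myc_p53 1 is the lowest for Timp1 at 7.59 CPM, and Mmp14 shows Myc_p53 1 at 4.11 CPM beside 148.3 and 153.6 in the other Myc_p53 lines.

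Of the 8 other genes that passed the count filter, 1 was higher in Myc_Utx, Timp1, where 6.99% of all genes tested were higher. At the same threshold 0 were lower, where 7.69% of all genes tested were lower, and 14.7% were called in either direction. At an unadjusted p under 0.05 by edgeR 2 were lower, where 18.3% of all genes tested were. DESeq2 also called 2 lower, Sh3pxd2a and Timp2, and 13.2% of all genes tested. Every Myc_Utx line lay below every Myc_p53 line for 1 of the 8, Sh3pxd2a, against 20.9% of all genes tested, and above for 1, Timp1, against 21.1%. In either direction 42% of all genes tested had groups that did not overlap, so these counts do not set the 8 genes apart. The median log2 fold change of the 8 was -0.48, against -0.01 over all genes tested, with 5 below 0 and 3 above.

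Timp1, a secreted inhibitor of most metalloproteinases, was at 59.0, 61.2 and 58.3 CPM in Myc_Utx 2A, 2B and 2D, and at 7.59, 20.2 and 21.2 CPM in Myc_p53 1, 2 and 3. The Myc_Utx lines were nearly alike and all lay above the Myc_p53 lines, among which line 1 was the lowest. Its means were 59.5 ± 1.51 and 16.3 ± 7.60 CPM (SD, n = 3 each), a 3.64-fold higher level in Myc_Utx. In the test its log2 fold change was 1.86 (standard error 0.38, edgeR adjusted p = 0.0288). It stayed between 1.51 and 2.10 with a line left out, but the adjusted p was 0.0842 without Myc_Utx 2A, 0.0864 without 2B, 0.0943 without 2D and 0.0663 without Myc_p53 3, and it was 0.0576 with length offsets (log2 fold change 1.53). Timp1 has the shortest transcript of the 10 genes, at 888 bases. The gene lies on chromosome X from 20870166 to 20874735, within the span of Syn1 on the opposite strand but sharing no exon with it, and Syn1 had at most 14 counts in any line.

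The remaining inhibitors had lower means in Myc_Utx, with overlap. Timp2, which inhibits metalloproteinases and forms a complex with Mmp14 and pro-Mmp2, was at 293.4, 255.2 and 120.9 CPM in Myc_Utx 2A, 2B and 2D, and at 282.4, 692.7 and 453.0 CPM in Myc_p53 1, 2 and 3. Myc_p53 1 lay between the Myc_Utx lines, while the other Myc_p53 lines were above them all. Its log2 fold change was -1.09 (standard error 0.43, edgeR adjusted p = 0.127), between -1.36 and -0.71 with a line left out and -1.11 by DESeq2 (adjusted p = 0.0335).

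Timp3, an inhibitor that binds to the matrix, was at 171.9, 82.6 and 71.0 CPM in Myc_Utx 2A, 2B and 2D, and at 119.8, 300.3 and 253.4 CPM in Myc_p53 1, 2 and 3. The overlap again came from Myc_p53 1, which lay below Myc_Utx 2A. Its log2 fold change was -1.05 (standard error 0.45, edgeR adjusted p = 0.156). Timp3 shares 1733 of its 8144 exonic bases with Syn3 on the opposite strand, and strand use in counting is not given in the sources used here, so reads there could belong to either gene. Syn3 had at most 13 counts in any line.

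The relation between Timp1 and Timp2 differed between the groups, as a description without a test. Other ratios per kilobase, of Mmp14 to Timp2, Mmp2 to Mmp14 and Timp1 to Mmp14, overlapped. Among single genes, 42% of all tested had groups that did not overlap. Per kilobase, the ratio of Timp1 to Timp2 mRNA was 0.88, 1.05 and 2.12 in Myc_Utx 2A, 2B and 2D, and 0.12, 0.13 and 0.21 in Myc_p53 1, 2 and 3, without overlap. In Myc_p53 lines Timp2 was the most abundant of the 10 transcripts per kilobase, at a mean of 122.2 ± 52.9 CPM per kb (SD, n = 3), with Timp1 at 18.4 ± 8.56. In Myc_Utx lines Timp1 was at 67.0 ± 1.7 and Timp2 at 57.3 ± 23.3, which do not differ beyond their spread. Summed per kilobase, the 3 Timp genes ranged from 105.5 to 162.9 in Myc_Utx and from 95.7 to 237.4 in Myc_p53 lines, and so overlapped.

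**Figure D2:**
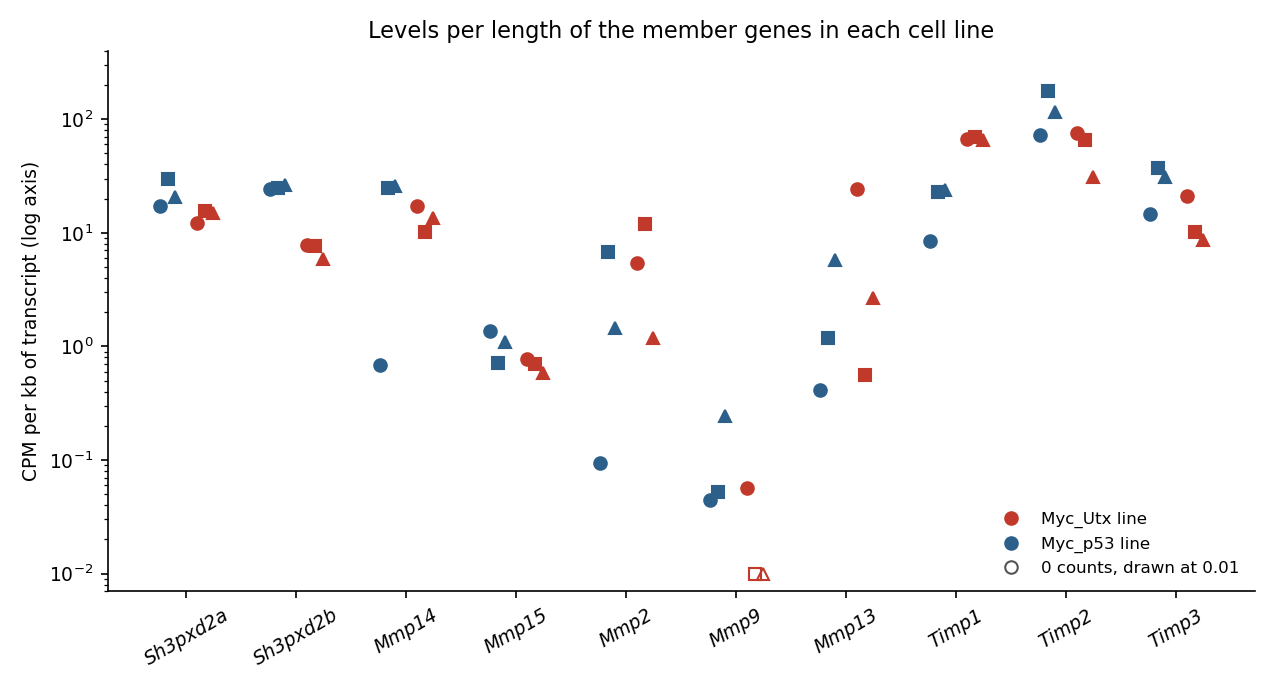
Level of each gene per kilobase of transcript (CPM per kb, log axis) in each line, with Myc_Utx in red, Myc_p53 in blue and the same line symbols as in the plot of CPM by line, and open symbols for 0 counts drawn at 0.01. Timp2 ranks 1 of 10 by mean in Myc_p53 and Timp1 in Myc_Utx lines, while Timp3 ranks 2 in Myc_p53 and 5 in Myc_Utx lines. Lowest is Mmp9, with at most 0.24 CPM per kb, and Mmp2, Mmp13 and Mmp14 spread widely between lines of one group.

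Mmp14, the membrane protease MT1-MMP that is the main collagen-degrading enzyme of invadopodia, was at 101.9, 60.9 and 80.2 CPM in Myc_Utx 2A, 2B and 2D. In Myc_p53 lines it was at 4.11, 148.3 and 153.6 CPM, from 26, 800 and 1077 counts. Myc_p53 1 stood far below every other line, and Myc_p53 2 and 3 stood above every Myc_Utx line. With all 6 lines the log2 fold change was -0.33 (standard error 1.01, edgeR adjusted p = 0.836). Without Myc_p53 1 it was -0.90 (adjusted p = 0.0658), whereas it was 0.04 without Myc_p53 2 and 0.10 without Myc_p53 3, so that the direction depended on the Myc_p53 lines used.

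Mmp15, a membrane-anchored relative of Mmp14, had low levels, from 3.12 to 4.19 CPM in Myc_Utx and from 3.89 to 7.43 CPM in Myc_p53 lines. Its counts were between 14 and 47 per line. The groups overlapped through Myc_p53 2, and the log2 fold change was -0.63 (standard error 0.34, edgeR adjusted p = 0.234).

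Mmp2, the gelatinase that Mmp14 activates, was at 18.1, 40.4 and 4.01 CPM in Myc_Utx 2A, 2B and 2D, and at 0.32, 22.8 and 4.85 CPM in Myc_p53 1, 2 and 3. It varied more within each group than between the group means of 20.9 CPM in Myc_Utx and 9.32 CPM in Myc_p53, and Myc_p53 1 held only 2 counts. Its log2 fold change was 1.18 (standard error 1.28, edgeR adjusted p = 0.544), between 0.27 without Myc_Utx 2B and 3.0 without Myc_p53 2. Myc_p53 1 was thus the lowest line for both Mmp14 and Mmp2.

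Mmp13, a collagenase of cartilage and of invasive tumours, was at 64.8, 1.5 and 7.13 CPM in Myc_Utx 2A, 2B and 2D, and at 1.11, 3.15 and 15.3 CPM in Myc_p53 1, 2 and 3. Line 2A alone carried the higher Myc_Utx mean, with 325 counts against 8 and 32 in the other 2 lines of its group. The log2 fold change was 1.90 (standard error 1.43, edgeR adjusted p = 0.383) with all lines and -0.59 (adjusted p = 0.778) without Myc_Utx 2A. Mmp9, the other gelatinase, had 1, 0 and 0 counts in Myc_Utx and 1, 1 and 6 counts in Myc_p53 lines. It did not pass the count filter and had no test, and a difference could not be judged at this depth.

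**Figure D3:**
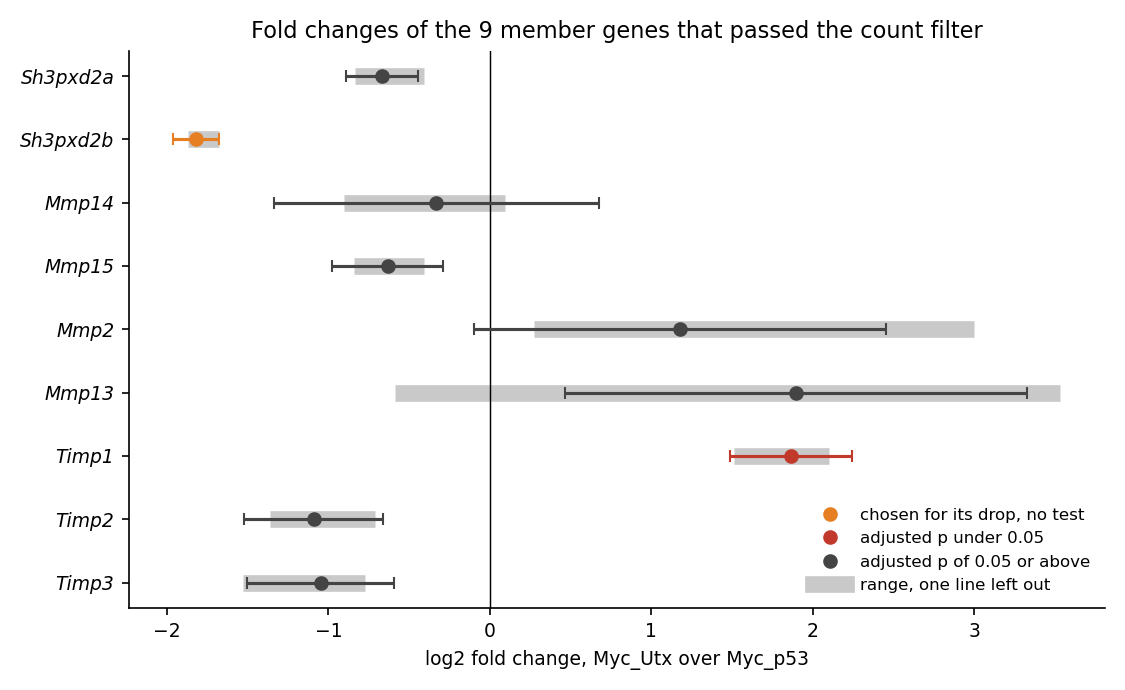
Log2 fold change, Myc_Utx over Myc_p53, of the 9 genes that passed the count filter, with standard errors as bars and the range over fits that leave out 1 line in grey. Timp1 (1.86) is the gene past an adjusted p of 0.05, Sh3pxd2b (-1.82) is shown without a test, and the grey ranges of Mmp13 and Mmp14 cross 0.

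Mmp13 lies on chromosome 9 from 7272514 to 7283331, at one end of a cluster of 10 Mmp genes that reaches to 7699585. Of these, 3 passed the count filter, namely Mmp13, Mmp12 and Mmp3. Mmp3 encodes stromelysin-1, which cleaves many matrix proteins and can activate other pro-metalloproteinases. It was at 59.6, 2.62 and 11.6 CPM in Myc_Utx 2A, 2B and 2D, and at 0, 2.04 and 1.85 CPM in Myc_p53 1, 2 and 3. Within Myc_Utx lines its order was that of Mmp13, with 2A the highest and 2B the lowest. The log2 fold change was 4.23 (standard error 1.41, edgeR adjusted p = 0.0884), and the gene is named here after its values had been seen.

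Mmp12, the macrophage elastase, which lies between Mmp13 and Mmp3 from 7344381 to 7369499, went the other way. It had 0 counts in every Myc_Utx line and 40, 20 and 70 counts in Myc_p53 1, 2 and 3, which is at least 10.9-fold lower in Myc_Utx when set against a floor of 3 counts per library (edgeR adjusted p = 0.0188). Mmp11, the stromelysin-3 found in tumour stroma, was at 0.67 to 1.5 CPM in Myc_Utx and 5.53 to 37.3 CPM in Myc_p53 lines, and its log2 fold change was -4.12 ± 0.81 (SE, adjusted p = 0.0274). Mmp19 was at 0.19 to 0.89 and 1.90 to 10.2 CPM, and its log2 fold change was -3.49 ± 0.83 (SE, adjusted p = 0.0410). Among the 18 other Mmp genes in the table, 4 passed the count filter, and the 3 called lower had at most 8 counts in any Myc_Utx line, so that they passed it through the Myc_p53 lines. Over all genes tested 7.69% were lower. Mmp23 had at most 3 counts in Myc_Utx and 5 to 6 in Myc_p53 lines, and 9 of the 18 had at most 3 counts in any line. The 5 Mmp genes of the set, summed per kilobase, ranged from 17.9 to 47.6 CPM per kb in Myc_Utx and from 2.62 to 34.2 in Myc_p53 lines, and the groups overlapped.

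Among lists of cell type markers, the summed levels of macrophage and endothelial markers did not overlap between the groups, while those of the other 4 lists did. Of 12 macrophage markers, 6 were tested and 5 were lower in Myc_Utx (Csf1r, Lyz2, C1qa, C1qb and C1qc), where 7.69% of all genes tested were lower. These 5 held under 10 counts in every Myc_Utx line and passed the count filter through the Myc_p53 lines, so they had to differ. The summed level of the list was 3.19 to 8.43 CPM in Myc_Utx and 39.9 to 108.5 CPM in Myc_p53 lines. The other tested marker, Cd68, had 14, 21 and 24 counts in Myc_Utx and 65, 18 and 48 in Myc_p53 lines, with overlap (edgeR adjusted p = 0.300). It was at 2.79, 3.93 and 5.34 CPM in Myc_Utx 2A, 2B and 2D. The macrophage markers Clec4f and Vsig4 had 0 counts in all 6 lines, and Adgre1 had 5 to 11 counts in Myc_p53 and 0 in Myc_Utx lines. Ptprc had 0 counts in Myc_Utx and 1, 2 and 3 in Myc_p53 lines. The fibroblast and stellate list ranged from 1953 to 2693 CPM in Myc_Utx, and was at 42.4, 3170 and 726.2 CPM in Myc_p53 1, 2 and 3. Col3a1 made up most of it in Myc_Utx 2A, 2B and 2D, at 1730.5, 2300.9 and 2558.2 CPM. In Myc_p53 1, 2 and 3 Col3a1 was at 10.3, 2721 and 73.9 CPM. Dcn of that list had 1, 3 and 0 counts in Myc_Utx and 86, 9 and 109 in Myc_p53 lines. Of the 6 genes of the list tested, 2 had log2 fold changes above 0 and 4 below, and 0 were called. The hepatocyte list, of which Tf was not found by symbol, was at 29.7 to 96.1 CPM in Myc_Utx and at 1244, 72.5 and 841.4 CPM in Myc_p53 1, 2 and 3, and Krt8 and Krt18 made up most of it in Myc_p53 1 and 3. Alb, the defining hepatocyte marker, had only 4 to 26 counts in any line. Apob was called lower, with 0, 6 and 1 counts in Myc_Utx and 88, 71 and 378 in Myc_p53 lines (edgeR adjusted p = 0.0240), and Hnf4a had at most 3 counts in Myc_Utx and 8 to 64 in Myc_p53 lines. Cholangiocyte and progenitor markers ranged from 511.5 to 1442 CPM in Myc_Utx and from 155.7 to 1478 in Myc_p53 lines. Of the 4 genes of that list tested, 2 had log2 fold changes above 0, Sox9 (0.94) and Spp1 (0.21), and 2 below, Krt19 (-3.22) and Prom1. Only Prom1 was called, as lower, with at most 2 counts in Myc_Utx and 12 to 141 in Myc_p53 lines (edgeR adjusted p = 0.0287). Apob and Prom1 also held under 10 counts in every Myc_Utx line and passed the filter through the Myc_p53 lines, so they too had to differ. Endothelial markers summed to at most 1.20 CPM in Myc_Utx and 3.52 to 11.8 in Myc_p53 lines, and lymphocyte markers to at most 0.47 CPM in any line. Mmp14 and Mmp2 were lowest in Myc_p53 1, which had the lowest fibroblast and stellate sum but 86 counts of Dcn. Mmp12 was detected in the lines with the higher macrophage sums. The part of such cells in these levels was not tested, and in bulk RNA fewer cells of a type and less RNA per cell cannot be told apart.

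**Figure D4:**
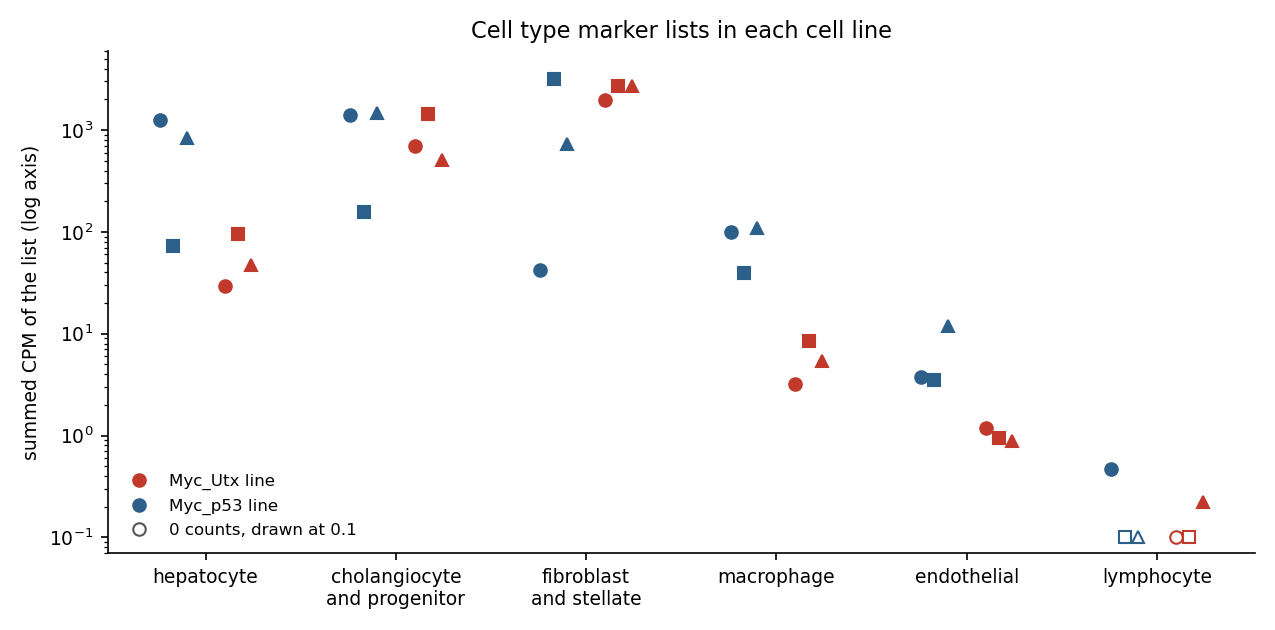
Summed CPM of 6 lists of cell type markers in each line (log axis), with Myc_Utx in red, Myc_p53 in blue and the same line symbols as in the plot of CPM by line, and open symbols for 0 counts drawn at 0.1. Macrophage markers are at 3.19 to 8.43 CPM in Myc_Utx and 39.9 to 108.5 in Myc_p53 lines, and the fibroblast and stellate list is lowest in Myc_p53 1.

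Beyond the 10 genes, 161 related genes in 8 lists were in the table and 98 of them passed the count filter. Of these, 3 (3.06%) were higher and 11 (11.2%) lower in Myc_Utx, against 6.99% and 7.69% of all genes tested. Every Myc_Utx line held under 10 counts of 7 of the 11, which passed the filter through the Myc_p53 lines and so had to differ. These were Afap1l1, Mmp11, Mmp12, Mmp19, Adamts15, Ctss and Nox4, and their adjusted p-values are given as a description only. A filter of at least 10 counts in every line, which leaves out genes that are near 0 in 1 group, kept 79 of the related genes. Of those, 3 were higher and 4 lower. Of the 9993 genes kept by that filter, 678 were higher and 740 lower. Of the 161, 150 had a count. Of these, 10 were at or under 3 counts in every Myc_Utx line and above it in every Myc_p53 line, and 0 the other way round. Over all 24221 genes with a count, 492 (2.03%) were split in that direction and 38 (0.157%) the other way round. The lists were chosen with earlier results of these data known. The 10 are Afap1l1, Adamts15, Dpp4, Nox4 and Mmp23, and Ctss, Mmp12, Cyba, Cybb and Ncf1, which macrophages express. The source of these transcripts was not tested.

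Of 48 tested invadopodium and podosome components other than Sh3pxd2b (Sh3pxd2a among them), 1 was higher and 2 were lower, with a median log2 fold change of -0.16. At an unadjusted p under 0.05 by edgeR 2 were higher and 13 lower, and DESeq2 called 2 higher and 8 lower. Over all 11510 genes tested, edgeR called 6.99% higher and 7.69% lower. At the unadjusted p 1916 of them were higher and 2110 lower, and DESeq2 called 1268 higher and 1514 lower. Abl2, the Arg kinase that phosphorylates cortactin at invadopodia, was at 113.4 ± 16.5 CPM in Myc_Utx and 204.9 ± 47.0 CPM (SD, n = 3 each) in Myc_p53 lines, a log2 fold change of -0.85 (edgeR adjusted p = 0.0404). With length offsets its adjusted p was 0.0788. Vasp, which promotes elongation of actin filaments, was higher, at 144.2 ± 24.2 against 85.9 ± 11.5 CPM (SD, n = 3 each), a log2 fold change of 0.75 (adjusted p = 0.0362). Its adjusted p was 0.0644 with length offsets and 0.0501 with total counts only.

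Afap1l1, an actin filament and Src-binding protein of podosomes and invadopodia, had 1, 0 and 0 counts in Myc_Utx and 212, 12 and 153 counts in Myc_p53 lines, at least 31.5-fold lower in Myc_Utx (adjusted p = 0.0245). It passed the count filter through the Myc_p53 lines and so had to differ. Cttn, which encodes the invadopodium marker cortactin, was at 264.8 to 289.4 CPM in Myc_Utx and 197.2 to 259.5 CPM in Myc_p53 lines (log2 fold change 0.25, adjusted p = 0.207). Src, whose product phosphorylates both Tks proteins, was at 33.8 to 70.8 and 92.1 to 177.2 CPM without overlap (log2 fold change -1.13, adjusted p = 0.0818). Cttn and Src fall outside the rule for named genes and were added as the core of the structure.

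Among regulators of metalloproteinases, 2 of 9 tested were higher, where 6.99% of all genes tested were. Furin, the convertase that cleaves the propeptide of Mmp14, was at 208.8 to 263.2 CPM in Myc_Utx and 126.7 to 147.4 CPM in Myc_p53 lines, a log2 fold change of 0.82 (standard error 0.13, edgeR adjusted p = 0.0185). Sdc1, a cell surface heparan sulphate proteoglycan, was at 325.0 ± 49.8 against 149.0 ± 36.5 CPM (SD, n = 3 each), and its log2 fold change was 1.12 ± 0.21 (SE, adjusted p = 0.0250). In the plasminogen system 1 of 8 tested was lower, Plat, the tissue plasminogen activator, at 8.91 to 22.7 CPM in Myc_Utx and 53.0 to 111.4 CPM in Myc_p53 lines (log2 fold change -2.20, adjusted p = 0.0287). Over all genes tested 7.69% were lower. Of 6 ADAM genes tested 0 were called by edgeR or DESeq2 in either direction, and 0 had an unadjusted p under 0.05. Over all genes tested edgeR called 14.7% in either direction.

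ADAMTS proteases, secreted enzymes that cleave proteoglycans such as versican and aggrecan, included 3 lower genes of 10 tested. Over all genes tested 7.69% were lower. Adamts1 was at 61.8, 53.6 and 35.2 CPM in Myc_Utx 2A, 2B and 2D, and at 409.4, 151.1 and 435.3 CPM in Myc_p53 1, 2 and 3. Its log2 fold change was -2.72 (standard error 0.45, edgeR adjusted p = 0.0188). Adamts5 was at 3.12 to 10.2 and 40.0 to 99.1 CPM, and its log2 fold change was -3.30 ± 0.54 (SE, adjusted p = 0.0188). Adamts15 had at most 1 count in Myc_Utx and 13 to 22 counts in Myc_p53 lines, at least 4.80-fold lower (adjusted p = 0.0206). It passed the count filter through the Myc_p53 lines and so had to differ. The median of this list was -1.36, against -0.01 over all genes tested.

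Cathepsins and surface proteases included 1 lower gene of 12 tested, Ctss, a cysteine protease abundant in macrophages, with at most 1 count in Myc_Utx and 10 to 36 counts in Myc_p53 lines (at least 4.95-fold lower, edgeR adjusted p = 0.0242). Over all genes tested 7.69% were lower. Ctss passed the count filter through the Myc_p53 lines and so had to differ. Dpp4 had 0 counts in Myc_Utx and 58, 16 and 8 in Myc_p53 lines and did not pass the count filter. Tks proteins are related to the organisers of NADPH oxidases, enzymes that make reactive oxygen species at invadopodia. Nox4, an oxidase catalytic subunit, had 0, 1 and 1 counts in Myc_Utx and 53, 23 and 54 in Myc_p53 lines, at least 11.1-fold lower (adjusted p = 0.0141). Its call too rests on a filter passed through the Myc_p53 lines. Cyba, Cybb and Ncf1, which encode subunits of the phagocyte oxidase, had at most 3 counts in any Myc_Utx line and 4 to 58 in Myc_p53 lines. The Myc_p53 lines were also those with the higher macrophage sums. These 3 genes did not pass the count filter.

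**Figure D5:**
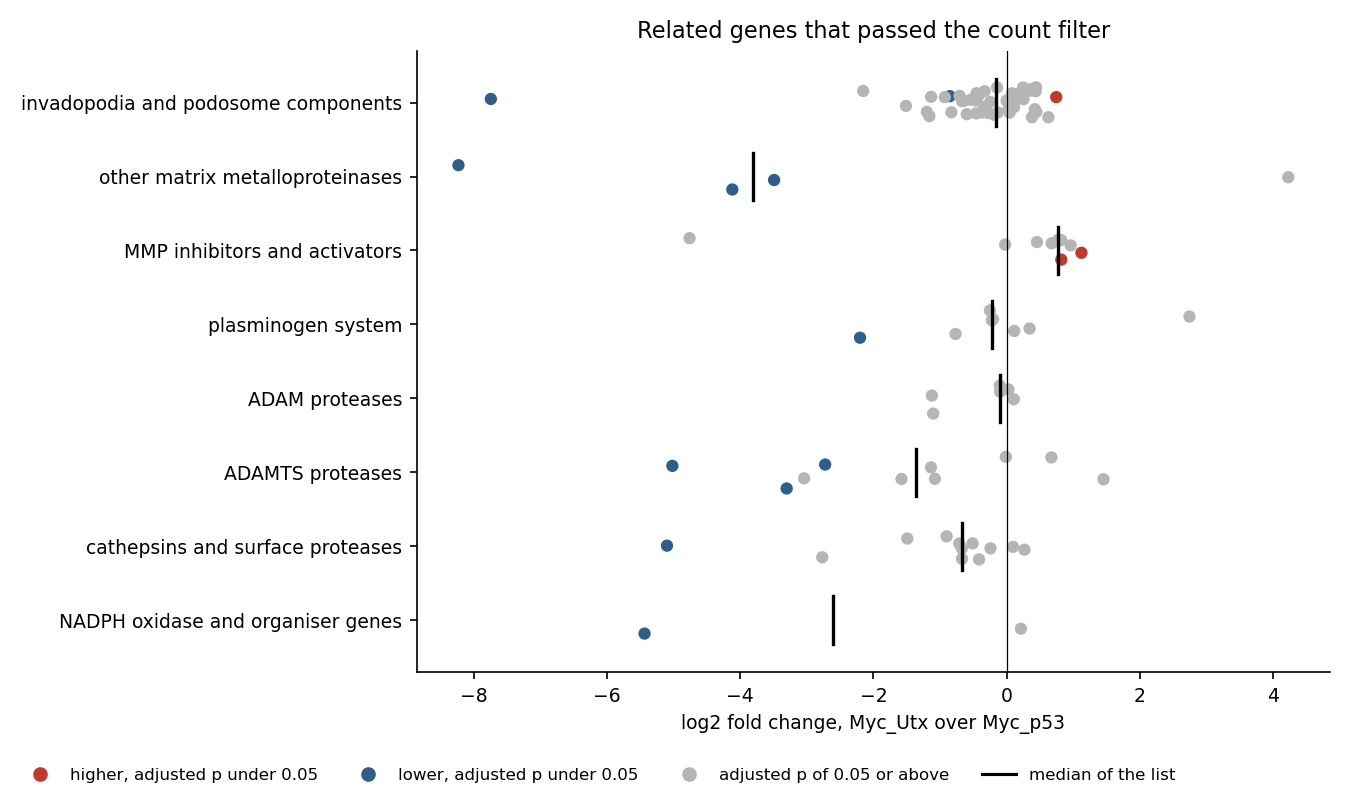
Log2 fold changes, Myc_Utx over Myc_p53, of related genes that passed the count filter, 1 point per gene, with called genes in red (higher) or blue (lower), others in grey and the median of each list as a black line. ADAMTS proteases and other matrix metalloproteinases hold 3 lower genes each, of 10 and 4 tested, where 7.69% of all genes tested were lower. Mmp11, Mmp12, Mmp19 and Adamts15 held under 10 counts in every Myc_Utx line. They passed the filter through the Myc_p53 lines and so had to differ. The median of invadopodia and podosome components is -0.16. The leftmost points, Mmp12 and Afap1l1, have at most 1 count in any Myc_Utx line, and such fold changes depend on the prior count.

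Calls of single genes depended on the lines used. With Myc_Utx 2A, 2B or 2D or Myc_p53 3 left out, 0 of the 98 related genes and 0 of the 8 other members were called by edgeR, and over all genes no more than 63 were higher and 57 lower in any of these 4 fits. At an unadjusted p under 0.05, 3125 to 3499 genes passed in them.

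The 5 genes whose log2 CPM over the 6 lines was most like that of Sh3pxd2b, among 9484 genes averaging 50 counts or more, were Nsd3, Phc3, Pkn2, Fbxw8 and Rufy2, with Pearson's r from 0.995 to 0.999. The 6 points share the split between the groups, and the value is a description. All 5 were lower in each Myc_Utx than in each Myc_p53 line, with log2 fold changes from -0.91 to -0.58, smaller in size than the -1.82 of Sh3pxd2b. Nsd3 encodes a histone methyltransferase, Phc3 a Polycomb protein and Pkn2 a protein kinase.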

How the data were processed

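RNA was measured in 3 Myc_Utx and 3 Myc_p53 mouse liver tumour cell lines. The authors deposited raw counts, reads per Ensembl gene without normalization, with a transcript length in bases as other annotation. The submitters' processing notes name Trimmomatic 0.36, STAR 2.5.3a, featureCounts 1.6.3, DESeq2 1.20.0 and GRCm38 (mm10), whereas the paper's methods name HTSeq, a human build and, for this experiment, sgMll3 lines. Groups follow the labels. Member coordinates equal those of GENCODE M21 for all but Sh3pxd2a, which differs at one end. Total counts of 4656103 to 6937497 limit genes near the floor of 3 counts, and floors cover counting error only.

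The test was run with edgeR 4.0.16 under R 4.3.3 (filterByExpr with a minimum count of 10, TMM, quasi-likelihood F test, Benjamini-Hochberg adjustment over all genes tested, threshold 0.05). For standard errors, the absolute log2 fold change was divided by √F. p-values measure the spread between lines, whose mice of origin the labels do not give. The procedure was tested on simulated data for this comparison over 11353 genes: it recovered 92.7% of 193 genes given a log2 change of 2, with 2.19% of calls false. The simulation gave every gene the same dispersion (0.112), whereas the measured genes differ widely in spread between lines. These rates therefore need not hold for the measured genes. The members and lists were chosen with earlier results of these data known. Named are the members, up to 6 called genes per list by adjusted p, list genes at the floor in 1 group and above it in every line of the other, and the 5 genes most like Sh3pxd2b over the 6 lines. Alternatives were other count filters, DESeq2 1.42.0 size factors, total counts only, length offsets (natural splines with 5 degrees of freedom, fitted robustly with MASS 7.3.60.0.1), DESeq2, and leaving out each line. Some values are not reported here.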

Additional observations from a re-analysis of the deposited data

How the results depend on the processing

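No paired analysis was possible because no number in the labels ties a Myc_Utx line to a Myc_p53 line. The log2 fold change of Sh3pxd2b moved beyond the spread within groups with length offsets (-1.61). With a line left out it ranged from -1.87 to -1.68. The count of higher genes was 1268 with DESeq2 and ranged from 3 to 836 with a line left out, and that of lower genes was 1514 with DESeq2 and ranged from 1 to 1118. Of the other members, 0 were higher with length offsets, and 0 to 1 with a line left out. DESeq2 gave 2 lower members, against 0. Related genes called higher numbered 6 with DESeq2, 2 with total counts only and 2 with length offsets, against 3, and 0 to 4 with a line left out. Related genes called lower, Sh3pxd2a counted among them, numbered 22 with DESeq2 and 4 with at least 10 counts in every line, where fewer genes were tested, against 11, and 0 to 16 with a line left out. Otherwise the cause was not tested. The share of higher among called genes was 47.6%, and 37.3% with total counts only, which shifted the median log2 fold change to -0.0763. The 3 reversals were Mmp14 at 0.0446 without Myc_p53 2 and 0.0957 without Myc_p53 3, and Mmp13 at -0.589 without Myc_Utx 2A. With a line left out, Mmp14 ranged from -0.904 to 0.0957 and Mmp13 from -0.589 to 3.53. Over the alternatives for 22 tested members and named genes, 66 results were weaker, 2 stronger and 182 kept direction and side of the threshold. At this depth, folds against a group at the floor are lower bounds.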
